A study of Mus musculus with 60 samples.

Results

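Liver and pancreas of the same mice were compared by sequencing of poly(A)-selected RNA. The comparison used 20 of the 60 libraries in the series, 1 liver and 1 pancreas library from each of 10 mice. The series held 12 mice, and 2 CD1 females were left out because their pancreas libraries had fewer than 1000000 raw counts of Cpa1, which encodes the digestive enzyme carboxypeptidase A1. Those libraries had 2405 and 644257 counts, and the lowest library kept had 1100254. The mice kept were 3 males and 1 female of CD1, an outbred stock, and 3 males and 3 females of C57, an inbred strain. The labels name no allele, agent, treatment or age for any group, so the pairs differ only by organ, strain and sex as far as stated. Each library came from bulk tissue, so fewer cells of a type and less RNA per cell cannot be told apart. The parotid, submandibular and sublingual glands of the same 10 mice gave 30 further libraries, which serve below as the outside group for what liver and pancreas have in common.

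Liver and ventral pancreas arise next to each other from the foregut endoderm, where FOXA and GATA factors open the same chromatin before the fates part. PDX1 and PTF1A then direct the pancreas, whose acinar cells make digestive enzymes and whose islets make insulin and glucagon. HHEX, PROX1 and HNF4A direct the liver, whose hepatocytes secrete most plasma proteins, make bile and buffer blood glucose and amino acids.

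Liver libraries held 37194220 to 51159982 counts and pancreas libraries 30409299 to 45516770 counts. The 10 most abundant genes took 15.7% to 22.4% of the counts in liver but 53.8% to 59.5% in pancreas. Levels are given as CPM, counts scaled to 1000000 per library, after trimmed mean of M-values (TMM) scaling, which centres most genes between the organs, and the median log2 difference over all 14957 genes tested was 0.03. Scaling by library totals alone moved that median to 1.26, so every difference is relative to the bulk of the genes, and near-equal levels hold on the TMM scale only. Differences are log2 of liver over pancreas, with the standard error (SE), and are positive where liver was higher. A gene was called when edgeR's adjusted p was under 0.05 and the difference at least 2-fold. It counted as within 2-fold when its whole 95% confidence interval lay between -1 and 1 on the log2 scale.

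Of the genes tested, 3287 were called higher in liver (22.0%) and 3423 higher in pancreas (22.9%), so 44.9% of the genes differed between the organs by this rule, and 77.2% passed the adjusted p alone. On library totals alone 85.4% of the calls were higher in liver, against 49.0% with TMM scaling. A further 6124 genes (40.9%) were within 2-fold. The libraries of the organs did not overlap for 3441 genes higher in liver (23.0%) and 2715 higher in pancreas (18.2%).

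Transcripts typical of either organ were also present in the other at a small share, nearly constant over the enzyme genes and over most coagulation genes. Over the 24 digestive enzyme genes listed beside Cpa1, mean pancreas levels ran from 5.57 to 190585 CPM, yet all differences lay between -9.58 and -8.34. By raw CPM, before TMM scaling, the median enzyme of a mouse stood in liver at 0.211% to 0.648% of its own level in pancreas. Over the 22 coagulation genes the median difference was 5.96. Their differences ran more widely, from 2.47 to 6.23, and 19 of them lay within 4-fold of that median. By the same raw measure the median coagulation gene of a mouse stood in pancreas at 0.399% to 1.1% of its level in liver. The plot of mean levels shows these shares as lines parallel to the diagonal. Whether cells of the lower organ made these transcripts was not tested. Genes within 4-fold of the lines, 841 on the liver side (5.62%) and 140 on the pancreas side (0.936%), are called near-line genes below.

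**Figure D1:**
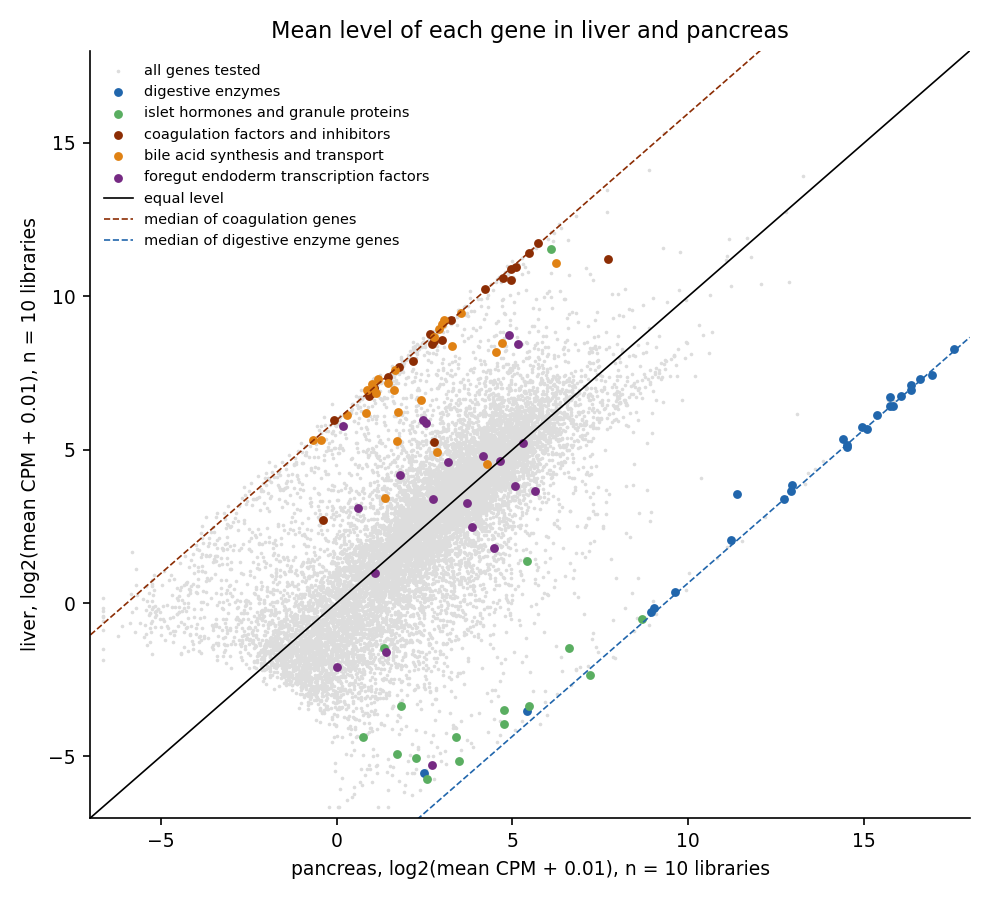
Mean level of each gene tested in pancreas (x axis) and liver (y axis), as log2(mean CPM + 0.01) over 10 libraries per organ; coloured points are listed gene groups, the solid line marks equal levels and dashed lines the median difference of coagulation genes (5.96) and digestive enzyme genes (-9.34). Enzyme points run along the lower dashed line and most coagulation points along the upper one, while foregut transcription factors lie across the middle; the islet-list point high on the left is Ttr, a plasma protein gene.

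The secretory programme of the exocrine pancreas held the most abundant transcripts of the comparison. In the order lowest, median and highest of the 10 libraries, which is used for all levels below, Ctrb1 (chymotrypsinogen) was at 143466, 179692 and 239732 CPM in pancreas and 151, 278 and 517 CPM in liver. Pnlip, which encodes the main pancreatic lipase, had 82363, 101092 and 106781 CPM in pancreas against 95.6, 131 and 259 CPM in liver. Cel, the bile salt-activated lipase, had 58474, 85576 and 98721 CPM in pancreas and 68.1, 107 and 199 CPM in liver. Every pancreas library exceeded every liver library for these genes, with differences of -9.37, -9.38 and -9.48. All 24 enzyme genes were called higher in pancreas, against 22.9% of all genes, with a median of -9.34. The 2 weakest, Amy2b and Ctrc, had the widest errors, at -8.34 ± 0.70 and -8.37 ± 0.70. The least abundant, Prss1, had at most 2 counts in any liver library, so its direction was set by the expression filter. All 16 other acinar secretory genes were likewise called, and 14 of them were near-line genes. The 10 largest differences among abundant genes that all 10 mice shared were in Amy2a2, Aqp12, Pdia2, Rbpjl, Serpini2, Cela2a, Gp2, Rnase1, Cpa1 and Ctrl. Cpa1 chose the animals and is given here without a test.

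Around the enzymes stood the genes that serve their making and release. Cckar, the receptor through which cholecystokinin triggers enzyme release, had 466, 515 and 681 CPM in pancreas and 0.370, 0.749 and 1.32 CPM in liver (-9.51 ± 0.25, adjusted p = 7.1e-13). Pdia2, a disulfide isomerase of the acinar endoplasmic reticulum, had 2598, 2954 and 3309 against 1.93, 3.23 and 7.32 CPM. Aqp12, an acinar aquaporin, had 169, 247 and 298 against 0.144, 0.256 and 0.470 CPM. These genes sat on the enzyme line. Rab3d, a zymogen granule GTPase, was above it in liver, at a difference of -4.22 ± 0.10, as was Fkbp11, a folding factor, at -4.39 ± 0.25. Of the 18 machinery genes 13 were called higher in pancreas and 4 higher in liver, against 22.9% and 22.0% of all genes. The 4 higher in liver were Gjb1 and Gjb2, the connexins that couple both acinar cells and hepatocytes (2.81 ± 0.10 and 2.06 ± 0.10), the water channel gene Aqp8 (2.18 ± 0.36) and the amino acid transporter gene Slc43a1 (2.52 ± 0.17). Vamp8, a granule SNARE protein gene, was within 2-fold (0.08 ± 0.09).

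Islet transcripts were detected in every pancreas library over a wide range. Ins1 had 23, 149 and 308 CPM in pancreas and 0.124, 0.167 and 0.324 CPM in liver. Gcg, the glucagon gene, had 3.0, 48.2 and 84.3 CPM in pancreas, with 81 to 1955 raw counts, and 2 to 12 raw counts in liver. Pdx1, which acts in both islet beta cells and pancreatic progenitors, had 5.08, 6.32 and 9.64 CPM in pancreas and at most 6 raw counts in any liver library. Of the 24 islet hormone and granule genes 16 passed the expression filter, 15 of them higher in pancreas. Most of these were near 0 in liver and passed the filter through pancreas alone, so their direction was set by the filter and is no support for the list. The gene higher in liver was Ttr (5.53 ± 0.24), which islets and hepatocytes both make. Of the 14 islet transcription factors only 3 passed the filter, and for Pdx1 and Nkx2-2 the same holds.

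In liver the secreted programme was that of the plasma. Alb (albumin) had 26759, 41923 and 52079 CPM in liver and 284, 654 and 1027 CPM in pancreas (6.09 ± 0.28, adjusted p = 7.6e-11). Fga (fibrinogen alpha) had 2281, 3248 and 4206 CPM against 20.7, 46.9 and 95.2 CPM, and Apob, the scaffold of very low density lipoprotein, 2032, 2349.8 and 2957 CPM against 16.3, 37.9 and 74.2 CPM. No library of the organs overlapped for any of these. All 27 plasma carrier and acute phase genes, all 24 apolipoprotein and lipoprotein assembly genes found in the table and all 22 coagulation genes were called higher in liver, with medians of 5.75, 5.70 and 5.96. Of these, 25, 20 and 19 were near-line genes. Over all genes 22.0% were called higher in liver. The 10 largest differences among abundant genes were in Apoa5, Slc27a5, Ly6g2, Acox2, Ugt2b5, Dpys, F12, Hgd, Cyp2d26 and Dmgdh.

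A few plasma protein genes stood more than 4-fold above the line in pancreas. Vtn (vitronectin) had 86.3, 111 and 521 CPM there against 1840.2, 2326 and 3064 CPM in liver (3.85 ± 0.30). Its pancreas levels split by strain, with 218 to 521 CPM in the 4 CD1 mice and 86.3 to 115 CPM in the 6 C57 mice. Mean Vtn levels in liver and pancreas were 2466 and 371 CPM in CD1 and 2331 and 99.9 CPM in C57. By these means only CD1 stood more than 4-fold above the line. Itih4, an inter-alpha-trypsin inhibitor heavy chain gene, had 77.6, 142 and 184 CPM in pancreas against 1357, 1717 and 2902 CPM in liver (3.82 ± 0.21). Over all 10 mice Vtn and Itih4 passed the 4-fold limit by less than their SE. Hgfac, whose protease activates hepatocyte growth factor, had 22.8, 98.2 and 129 CPM in pancreas and 76.1, 173 and 222 CPM in liver, and the organs overlapped although liver was higher in all 10 mice (1.17 ± 0.16). Among complement genes, 20 of 26 were higher in liver and 2 higher in pancreas, against 22.0% and 22.9% of all genes. The other 4 were not called, among them the C1q genes made by macrophages, with C1qa at 0.02 ± 0.15 and C1qb at 0.57 ± 0.21.

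To set sequence beside these opposite programmes, 4 promoters are shown, for the enzyme genes Cela1 (an elastase gene) and Cel and for the plasma protein genes Alb and Fga. Each is the 180 bases before the RefSeq gene start, on the gene's strand, from the RefSeq table for build GRCm38.p6: Cela1 at chr15:100687921-100688100 (minus strand), Cel at chr2:28563404-28563583 (minus), Alb at chr5:90460690-90460869 (plus) and Fga at chr3:83025973-83026152 (plus). Capitals in Cela1 and Cel mark the boxes CACCTG and TTTCCC, or their reverse complements CAGGTG and GGGAAA, and in Cela1 also the TATAAA box. Capitals in Alb and Fga mark the C/EBP core TTGCNNAA and the homeodomain site core GTTAAT, or their reverse complements.
Cela1: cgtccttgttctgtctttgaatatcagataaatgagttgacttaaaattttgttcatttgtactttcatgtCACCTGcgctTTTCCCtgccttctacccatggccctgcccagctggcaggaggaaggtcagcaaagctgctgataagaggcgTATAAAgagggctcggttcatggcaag
Cel: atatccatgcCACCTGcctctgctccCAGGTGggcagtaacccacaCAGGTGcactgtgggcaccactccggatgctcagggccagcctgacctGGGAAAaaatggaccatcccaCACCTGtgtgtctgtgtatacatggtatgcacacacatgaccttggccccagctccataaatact
Alb: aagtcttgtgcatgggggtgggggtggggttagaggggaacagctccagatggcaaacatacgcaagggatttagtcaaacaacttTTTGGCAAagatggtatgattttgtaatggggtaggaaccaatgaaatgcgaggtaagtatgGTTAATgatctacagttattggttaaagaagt
Fga: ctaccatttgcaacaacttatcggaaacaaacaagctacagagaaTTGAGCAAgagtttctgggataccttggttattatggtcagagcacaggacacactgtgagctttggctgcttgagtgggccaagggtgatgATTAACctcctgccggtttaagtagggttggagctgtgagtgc

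CACCTG is an E-box of the kind PTF1A binds with its partners, and TTTCCC is the box of its partner RBPJL in the joint site. Promoters were searched on both strands from 250 bases before to 50 after the start. CACCTG was in 20.2% of all 32851 promoters, in 13 of the 20 enzyme genes matched by name (65.0%) and in 8 of the 41 plasma protein and coagulation genes matched (19.5%). Both boxes in one orientation with 4 bases between them, CACCTGNNNNTTTCCC, occurred in 5 promoters of the whole table, and Cela1 and Prss1 were among them. TTTCCC alone was in 25.2% of all promoters, in 10 of the 20 enzyme genes and in 41.5% of the plasma genes. The C/EBP core was in 10.8% of all promoters, in 2 of the 20 enzyme genes and in 20 of the 41 plasma genes (48.8%). GTTAAT was in 7.10% of all, 15.0% of the enzyme genes and 26.8% of the plasma genes, and TATAAA in 13.6%, 45.0% and 22.0%. The forkhead site TGTTTAC was in 3.65% of all, in none of the enzyme genes and in 9.76% of the plasma genes. These are letter matches, and matches of the spaced pair are counted again under its boxes.

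Hepatocyte metabolism made the next block. Urea cycle genes were all higher in liver (11 of 11), led by Cps1, the entry enzyme, with 973, 2127 and 2688 CPM in liver and 14.5, 32.8 and 55.9 CPM in pancreas. Bile acid synthesis and transport genes were higher in liver in 26 of 27 cases, among them Cyp7a1, the rate-limiting enzyme, at 12.4, 42 and 80.0 CPM against 0.148, 0.589 and 1.51 CPM, and the bile salt pump gene Abcb11 at 209.8, 457 and 577 against 3.35, 7.05 and 9.98 CPM. The exception was Klb, a co-receptor discussed below. With as little as 0.148 CPM in pancreas, Cyp7a1 may have passed the expression filter through liver alone, so its direction is no support for the list. Amino acid catabolism was higher in liver for 28 of 32 genes, gluconeogenesis and glycogen for 18 of 19, and fatty acid oxidation and ketogenesis for 20 of 21. Over all genes the share called higher in liver was 22.0%. All 21 cholesterol synthesis and uptake genes were higher in liver, with a median of 3.43, and only 3 of them were near-line genes. Sc5d, a late sterol desaturase gene, had a difference of 3.72 ± 0.21. Fatty acid oxidation genes such as Acadm (3.19 ± 0.12) and Hadh (1.95 ± 0.14) were also clear of the line, with mean pancreas levels of 23.4 and 54.1 CPM.

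Most transcription factors of the foregut differed between the organs, and a few were near equal. Foxa2, a pioneer factor of both organs, had 16.8, 23.3 and 36.2 CPM in liver and 20.9, 24.8 and 28.6 CPM in pancreas, a difference of -0.07 ± 0.11 with a 95% interval of -0.30 to 0.17. Nr5a2, an orphan nuclear receptor that acts in bile acid synthesis and in acinar identity, had 20.2, 39 and 46.9 CPM in liver and 29.7, 37.3 and 52 CPM in pancreas, with an interval of -0.38 to 0.22. For both genes the ranges overlapped almost entirely. On library totals both were higher in liver, by 1.17 and 1.15. Foxa3 (0.45 ± 0.19) was within 2-fold too, but was called higher in liver in the CD1 pairs alone (1.02) and on library totals (1.68). Of the 21 foregut factors tested, 6 were within 2-fold, 8 were called higher in liver and 7 higher in pancreas, with a median of 0.00. Over all genes 40.9% were within 2-fold and 44.9% were called, so near-equal levels were no more frequent among these factors than elsewhere. On library totals 13 were higher in liver, 3 in pancreas, and the median was 1.23.

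On the liver side, Hnf4a, the main hepatocyte nuclear receptor, had 347, 428 and 551 CPM in liver and 19.2, 28.7 and 53.4 CPM in pancreas (3.87 ± 0.12, adjusted p = 1.6e-12). Prox1, which drives hepatoblast migration, had 46.3, 61.6 and 83 against 3.08, 5.19 and 8.84 CPM, and Hhex, needed for the liver bud, 37.8, 53.7 and 120.4 against 4.15, 5.29 and 9.05 CPM. Pancreas held 7.03%, 8.77% and 9.97% of the mean liver level. Onecut2 (5.70 ± 0.23) and Creb3l3 (6.13 ± 0.26), a stress-responsive regulator of hepcidin and lipid genes, were near-line genes. Cebpa (3.28 ± 0.10) and Foxa1 (2.38 ± 0.20) were called higher in liver at intermediate size. Over the 29 hepatocyte factors, 21 were called higher in liver, 3 were within 2-fold and the median was 2.38. For all genes these shares were 22.0% and 40.9%.

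On the pancreas side, Rbpjl, the acinar partner of PTF1A, had 163, 517 and 805 CPM in pancreas and 0.173, 0.469 and 1.42 CPM in liver. Ptf1a itself had 10.7, 20.4 and 27.7 CPM in pancreas, or 240 to 795 raw counts, and at most 6 raw counts in a liver library. It passed the filter through pancreas alone, so its direction was set by the filter. Bhlha15 (MIST1), which scales up secretory cells, had 212, 319 and 415 CPM in pancreas and 2.21, 4.29 and 7.14 CPM in liver (-6.22 ± 0.22), a liver level above the enzyme line. Gata4, which both organs use, was -2.03 ± 0.12, with 34.4, 51.1 and 59.3 CPM in pancreas and 8.11, 11.9 and 16.8 CPM in liver, and Gata6 was -1.38 ± 0.11. On library totals Gata4 came to -0.79 and Gata6 to -0.14, under the 2-fold limit. Sox9, a duct and progenitor factor, had 17.3, 21.5 and 29.7 against 1.94, 3.02 and 6.67 CPM (-2.74 ± 0.16). The plot of factors by library shows the shared genes on the left with interleaved points.

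**Figure D2:**
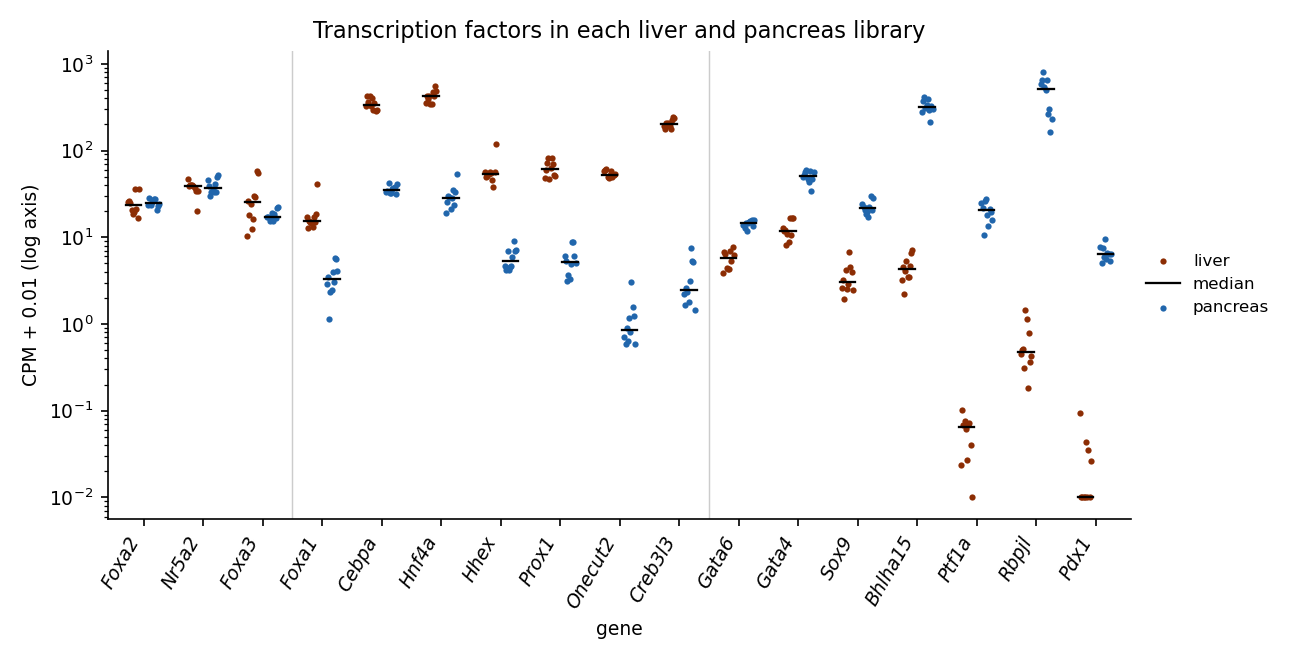
Level of 17 transcription factor genes in each of 10 liver and 10 pancreas libraries (CPM + 0.01, log axis; bars are medians), ordered as near equal, higher in liver, and higher in pancreas, with the genes from Foxa1 to Creb3l3 in the middle block. Foxa2 and Nr5a2 points of the organs interleave, Hnf4a differs by 3.87 log2 units without overlap, and Ptf1a and Rbpjl points of liver lie far below those of pancreas.

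Amino acid and methyl group metabolism divided the organs enzyme by enzyme. Methionine enters the methyl cycle through Mat1a, and Gnmt consumes surplus methyl groups. Mat1a, a near-line gene, had 924, 1511 and 2624 CPM in liver and 71.5, 92.2 and 135 CPM in pancreas (4.03 ± 0.18), and Gnmt 1138, 1503 and 2009 against 133, 149.9 and 225 CPM (3.24 ± 0.14). Ahcy, which clears the product S-adenosylhomocysteine, was 2.01 ± 0.13. Cbs, which passes homocysteine on towards cysteine, had 135, 304 and 383 CPM in liver and 186, 279 and 334 CPM in pancreas, a difference of 0.03 ± 0.11 with an interval of -0.20 to 0.27. Its libraries overlapped, and liver was higher in 6 of the 10 mice. On library totals the Cbs difference was 1.27. Bhmt, which remethylates homocysteine with betaine, was by contrast a near-line gene of liver (6.11 ± 0.29).

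Serine synthesis lay on the pancreas side. Phgdh, its entry enzyme, had 185, 248 and 303 CPM in pancreas and 0.963, 1.69 and 2.95 CPM in liver (-7.20 ± 0.19, adjusted p = 7.9e-13). Psat1, the next step, had 51.4, 75 and 86.5 against 0.788, 1.29 and 2.28 CPM (-5.71 ± 0.21), and Psph, the last, 5.98, 8.57 and 10.6 against 1.95, 2.71 and 4.0 CPM (-1.52 ± 0.11). Every pancreas library exceeded every liver library for all 3 genes, although Psph came to -0.29 on library totals and was no longer called. The mitochondrial folate genes Mthfd2 and Aldh1l2 were on the same side, at -5.71 ± 0.23 and -6.43 ± 0.24, while their cytosolic counterparts Mthfd1 (2.38 ± 0.10) and Aldh1l1 (4.08 ± 0.11, a near-line gene) were higher in liver. Serine hydroxymethyltransferase did not divide this way, since mitochondrial Shmt2 (1.64 ± 0.07) and cytosolic Shmt1 (4.34 ± 0.13, a near-line gene) were both higher in liver. Asns, asparagine synthetase, had 237, 307 and 348 CPM in pancreas and 2.34, 4.19 and 9.18 CPM in liver (-6.06 ± 0.21). In the list of 24 methionine, serine and glycine genes, 13 were higher in liver, 7 in pancreas and 4 within 2-fold, with a median of 1.82. Over all genes these shares were 22.0%, 22.9% and 40.9%.

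Creatine synthesis was also unequal between its steps. Gatm, which makes guanidinoacetate, had 350.2, 471 and 606 CPM in pancreas and 2.24, 5.54 and 13 CPM in liver (-6.37 ± 0.24, adjusted p = 1.2e-11). Gamt, which methylates it to creatine, had 153, 203 and 251 CPM in pancreas and 47.6, 117 and 167 CPM in liver, a difference of -0.88 ± 0.13 that did not reach the 2-fold limit, with pancreas higher in all 10 mice. On library totals Gamt turned to 0.35 and Gatm stayed higher in pancreas. The plot of these genes shows liver-high, near-equal and pancreas-high genes within single pathways.

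**Figure D3:**
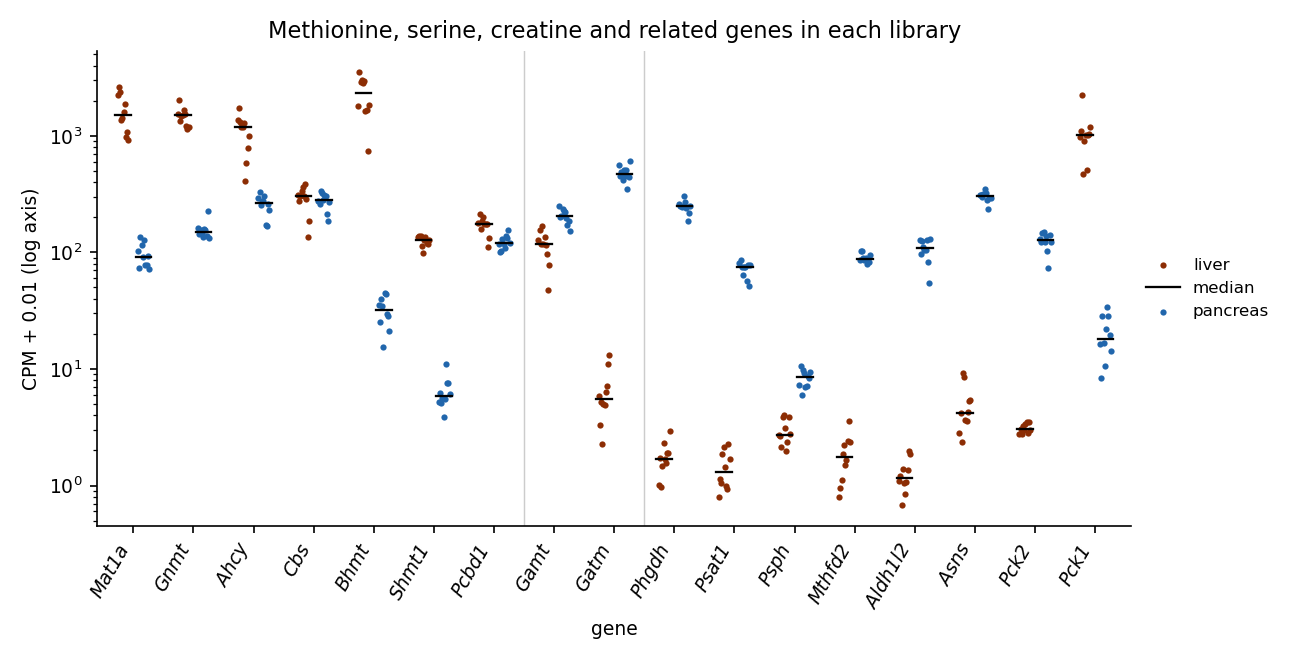
Level of 17 genes of methionine, pterin, creatine, serine, folate and asparagine metabolism and of both Pck genes in each of 10 liver and 10 pancreas libraries (CPM + 0.01, log axis; bars are medians). Cbs points interleave, Gatm is higher in pancreas by 6.37 log2 units while Gamt overlaps, and Phgdh, Psat1 and Asns of pancreas stand clear of liver.

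Pcbd1, a pterin cofactor recycling gene, had 111, 175 and 213 CPM in liver against 101, 119.6 and 154 CPM in pancreas and was within 2-fold (0.47 ± 0.12). Gls2, liver-type glutaminase, had 121.6, 250.04 and 284 CPM in liver and 72.7, 86.4 and 126 CPM in pancreas (1.41 ± 0.15), and liver was higher in 9 of 10 mice.

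Isoenzyme pairs were compared by the share of each form. Shares are of the summed CPM per kilobase of the pair, so that genes of different length can be compared. The liver pyruvate kinase Pklr made 97.1% of its pair with Pkm in the median liver library (range 85.9% to 98.9%) and 15.0% in pancreas (7.87% to 23.1%). Pck1, the cytosolic carboxykinase of gluconeogenesis, made 99.8% against its mitochondrial form Pck2 in liver and 14.6% in pancreas (8.12% to 33.3%). Pck2 itself had 74, 127 and 151 CPM in pancreas and 2.78, 3.02 and 3.48 CPM in liver (-5.32 ± 0.11). Gys2 against Gys1 gave 97.5% in liver and 10.8% in pancreas, and Pygl against Pygb 98.6% and 30.7%. The ranges of the organs did not overlap in these pairs. Pklr, Pck1, Gys2, Pygl and Mat1a are near-line genes of liver, so whether pancreas cells made the transcripts behind their pancreas shares was not tested.

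In other pairs the same form had the larger share in both organs. Mat1a made 97.7% of its pair with Mat2a in liver and 66.7% in pancreas. Ldha, a lactate dehydrogenase gene, made 98.4% of its pair with Ldhb in liver and 76.4% in pancreas. For acetyl-CoA carboxylase the order was opposite, since the mitochondrial form Acacb made 64.3% in liver and 88.0% in pancreas.

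**Figure D4:**
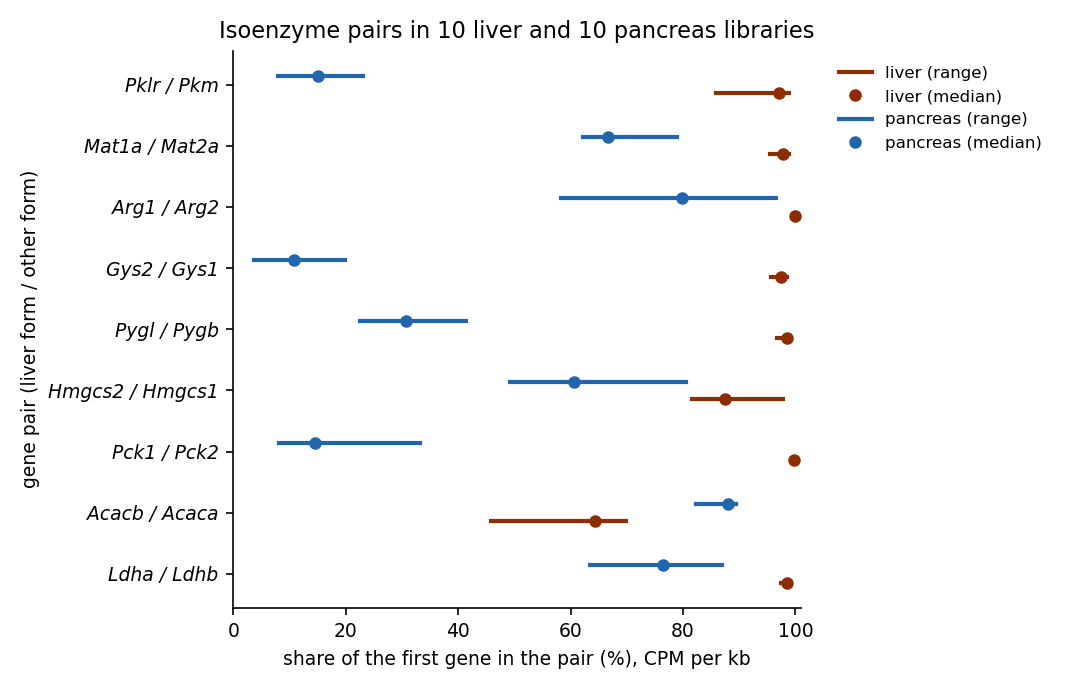
Share of the first-named gene in each pair, in percent of the pair's summed CPM per kilobase, with the median (dot) and range (bar) over 10 liver and 10 pancreas libraries. Pklr, Gys2, Pygl and Pck1 are dominant in liver only, with pancreas medians of 15.0%, 10.8%, 30.7% and 14.6%, while Ldha leads its pair in both organs.

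Both organs export much protein through the endoplasmic reticulum. Of 46 genes for import, folding and glycosylation in the endoplasmic reticulum, 22 were within 2-fold, 18 were called higher in pancreas and 4 higher in liver, with a median of -0.61. Over all genes 40.9% were within 2-fold, 22.9% were called higher in pancreas and 22.0% higher in liver. The count within 2-fold thus lay near that of any gene, while the calls leaned to pancreas on this scaling. On library totals the median turned to 0.62, with 13 higher in liver and 3 in pancreas, so the side of the list depends on the scaling. Hspa5 (BiP, -0.42 ± 0.12), the translocon gene Sec61a1 (-0.74 ± 0.07) and Pdia6 (-0.28 ± 0.10) were within 2-fold. Ero1b, an oxidase of secretory cells, was called on either scaling and had 472, 496 and 560.1 CPM in pancreas and 32.8, 39.7 and 91.2 CPM in liver (-3.52 ± 0.16). So was Sec11c, a signal peptidase subunit gene (-3.19 ± 0.10). The chaperone genes Calr (1.32 ± 0.13) and Pdia5 (2.48 ± 0.11) were higher in liver on both.

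Stress regulators were called more often in pancreas, 10 of 24 against 2 in liver, with a median of -0.77 that was 0.45 on library totals. For all genes the shares were 22.9% in pancreas and 22.0% in liver. Xbp1, the transcription factor of the unfolded protein response, had 319.8, 409.9 and 511 CPM in pancreas and 97.1, 157 and 224 CPM in liver (-1.41 ± 0.13). Eif2ak3 (PERK), the kinase that slows translation, had 50.2, 81.5 and 109 against 6.80, 8.73 and 17.9 CPM (-2.96 ± 0.18), and its downstream factor Atf4 145, 159 and 231 against 48.2, 66.9 and 81 CPM (-1.37 ± 0.08). On library totals Eif2ak3 stayed higher in pancreas at -1.73, and Xbp1 and Atf4 came to -0.17 and -0.13 and were no longer called. Sel1l, an adaptor of the degradation pathway, had 757, 871 and 1112 CPM in pancreas and 76.1, 94.2 and 149 CPM in liver (-3.20 ± 0.10). The membrane-bound factors parted by organ, with Creb3l1 at -3.16 ± 0.13 and Creb3l3 at 6.13 ± 0.26.

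Receptor genes for hormones and nerves lay on both sides. Gcgr, the glucagon receptor, had 144, 194 and 214 CPM in liver and 1.32, 3.41 and 6.45 CPM in pancreas (5.86 ± 0.24). Egfr had 187, 336 and 428 against 9.78, 16.3 and 22.9 CPM (4.34 ± 0.13), and both are near-line genes. On the pancreas side, the muscarinic receptor gene Chrm3, through which the vagus stimulates secretion, had 9.20, 12.4 and 14.2 CPM in pancreas against 0.273, 0.511 and 3.73 CPM in liver (-4.03 ± 0.38). Vipr2 and Glp1r had at most 10 and 4 raw counts in a liver library. Genes with so few liver counts can pass the expression filter only through pancreas, so their direction is no support for the list. Igf1r, the growth factor receptor gene, was -3.06 ± 0.20, while its ligand gene Igf1 was 2.76 ± 0.14. Insr (0.88 ± 0.07) differed without reaching 2-fold, and Vipr1 (0.08 ± 0.19) was within it. In all, 12 of 24 receptor genes tested were higher in liver and 6 in pancreas. Over all genes the shares were 22.0% and 22.9%, so the pancreas count lay near that of any gene.

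Genes of the FGF21 axis did not follow one pattern. Fgf21, a hormone of fasting and stress, had 6.19, 17.2 and 27.2 CPM in pancreas and 0.0144, 0.261 and 3.39 CPM in liver (-5.17 ± 0.46, adjusted p = 1.3e-07). With 0.0144 CPM in the lowest liver library, Fgf21 needed pancreas libraries to pass the expression filter, so its direction was partly set by the filter. The Fgf21 level in liver was highest in CD1 male 2 and below the lowest pancreas level in all 10 mice. Klb, its co-receptor, had 15.6, 22.6 and 31.3 CPM in liver and 16.3, 18.5 and 23.4 CPM in pancreas (0.24 ± 0.13), and Fgfr4, which pairs with KLB for FGF15, was higher in liver (3.61 ± 0.17). The iron hormone genes differed from each other. Hamp had 116, 229 and 768 CPM in liver and 1.91, 5.23 and 17.7 CPM in pancreas (5.57 ± 0.21), whereas its neighbour copy Hamp2 had 0.844, 29.2 and 165 and 20.1, 49.5 and 87.2 CPM (-0.87 ± 0.62, adjusted p = 0.22). Reads shared between these copies cannot be placed with certainty, and male livers held 0.844 to 31.1 CPM of Hamp2, below the 101 to 165 CPM of female livers.

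Duct and support cells are minor parts of both organs. Krt8 (0.37 ± 0.15) and Krt18 (-0.40 ± 0.11), keratins of hepatocytes, acinar and duct cells, were within 2-fold, and on library totals they came to 1.60 and 0.84, with Krt8 called higher in liver. The duct keratin genes Krt19 (-4.38 ± 0.33) and Krt7 (-2.24 ± 0.12) were higher in pancreas. Of 20 duct genes tested, 10 were higher in pancreas and 5 in liver, against 22.9% and 22.0% of all genes. Kupffer cell and sinusoidal endothelial genes were higher in liver for 5 of 9 and 6 of 9, among them Clec4f (5.68 ± 0.21) and Stab2 (5.13 ± 0.23). Stellate cell genes were higher in liver for 7 of 8, led by Lrat (5.75 ± 0.37). Fibroblast genes were higher in pancreas for 8 of 8, with a median of -2.73 and a summed level of 333 to 597 CPM in pancreas against 62.3 to 142 CPM in liver. Mesothelial genes were higher in pancreas for 5 of 5, with a summed 12.1 to 46.8 CPM in pancreas and 0.170 to 9.39 CPM in liver. At so low a level in liver, these genes may have passed the expression filter through pancreas alone. Their direction is therefore no support for the list. The 11 lymphocyte genes tested gave no call, and their sum was 3.78 to 12.8 CPM in liver and 2.41 to 19.0 CPM in pancreas. On library totals 7 of the lymphocyte genes and all 9 Kupffer cell genes were called higher in liver, and 5 fibroblast genes higher in pancreas. The part of these cells in the other differences was not tested.

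Transcripts of salivary secretions were found in both organs. Bpifa2, a parotid protein gene, had 579.6, 1328 and 2632 CPM in liver and 2234, 3666 and 7809 CPM in pancreas. The 11 listed secretion genes summed to 1975 to 5093 CPM in liver and 4861 to 15105 CPM in pancreas. Of the 11, 10 were called higher in pancreas, against 22.9% of all genes, with a median of -1.52. On library totals the median was -0.28, 9 of the 11 were within 2-fold and 1, Egf, was called. Their part in other differences was not tested.

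What liver and pancreas had in common was measured against the 3 glands. A gene counted as shared when the mean of liver and pancreas exceeded the mean of the glands (adjusted p under 0.05) and each of the 20 libraries exceeded each of the 30 gland libraries. Of 18676 genes tested over the 50 libraries, 271 were shared and higher (1.45%) and 322 were lower (1.72%), and 237 of the higher ones were not near-line genes (1.27%). The count was 63 on library totals and 52 with all 12 animals, and each of those smaller sets lay wholly inside the 271. Without single animals it ran from 276 to 315. Because the rule asks this of every library, adding animals mostly lowers the count and leaving 1 out mostly raises it. The nesting of the 52 and this range therefore say little about how stable the set is. Levels in the next paragraphs are on the TMM scale of all 50 libraries.

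The shared set held 9 of the 21 foregut factors tested, among them Foxa2, Foxa3, Gata4, Gata6, Hnf4a, Nr5a2 and Onecut1. Gata4 had 12.7, 18.7 and 26.4 CPM in liver and 51.1, 76.2 and 88.9 CPM in pancreas, and at most 1.34 CPM in any gland library (7.12 ± 0.18). Nr5a2 was at 31.8, 61.5 and 73.4 CPM in liver and 44.2, 55.6 and 76.9 CPM in pancreas, with at most 2.01 in a gland (6.65 ± 0.13). Foxa2 (6.14 ± 0.11) was lowest in parotid and submandibular gland and reached 6.03 CPM in a sublingual library. Foxa1 was not shared and reached 162 CPM in sublingual gland. With all 12 animals Foxa2, Hnf4a, Clu, Cbs, Slc38a3 and Pkhd1 no longer counted as shared, and on library totals Gata6 did not.

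Among abundant shared genes ranked by the lower organ's CPM per kilobase, Ftl1 and Fth1, the ferritin subunit genes, led with Clu (clusterin), Gstp1, Selenop, Ptms, Tle5, Oaz1, Pcbd1 and Gnmt. Clu had 1220.3, 1476 and 1935 CPM in liver and 1020.1, 1483 and 1982 CPM in pancreas, against at most 274 CPM in a gland (4.69 ± 0.23). Pcbd1 had 175, 274 and 337 and 151, 178 and 231 CPM, against at most 4.46 CPM (6.47 ± 0.11). Ferritin differences were smaller, at 2.03 ± 0.08 for Ftl1 and 1.63 ± 0.07 for Fth1. Neither was shared on library totals or with all 12 animals. The same held for Ptms, Tle5, Oaz1 and Gnmt, and Oaz1 turned to -0.10 on library totals. Selenop was not shared on library totals but was with all 12 animals.

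Other shared genes clear of the lines, chosen after their values were seen, included enzymes and transporters of small molecules. Hsd17b13, a lipid droplet enzyme gene, had 253, 309.9 and 645 CPM in liver and 107, 264 and 281 CPM in pancreas, with at most 4.51 in a gland. Gls2 had 192, 393 and 447 and 108, 129 and 188 CPM, with at most 3.16. Slc38a3, a glutamine transporter gene, had 1009, 1624 and 2245 and 201, 338 and 439.6 CPM, with at most 17.3. In the methionine list Ahcy, Cbs, Cth, Gnmt and Sardh were shared clear of the line, and in amino acid catabolism among others Gls2, Gpt, Prodh and Sdsl. Pkhd1, the ciliary gene of ducts, had 2.31, 5.20 and 8.34 and 5.27, 8.06 and 16.7 CPM, and at most 0.213 in a gland.

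**Figure D5:**
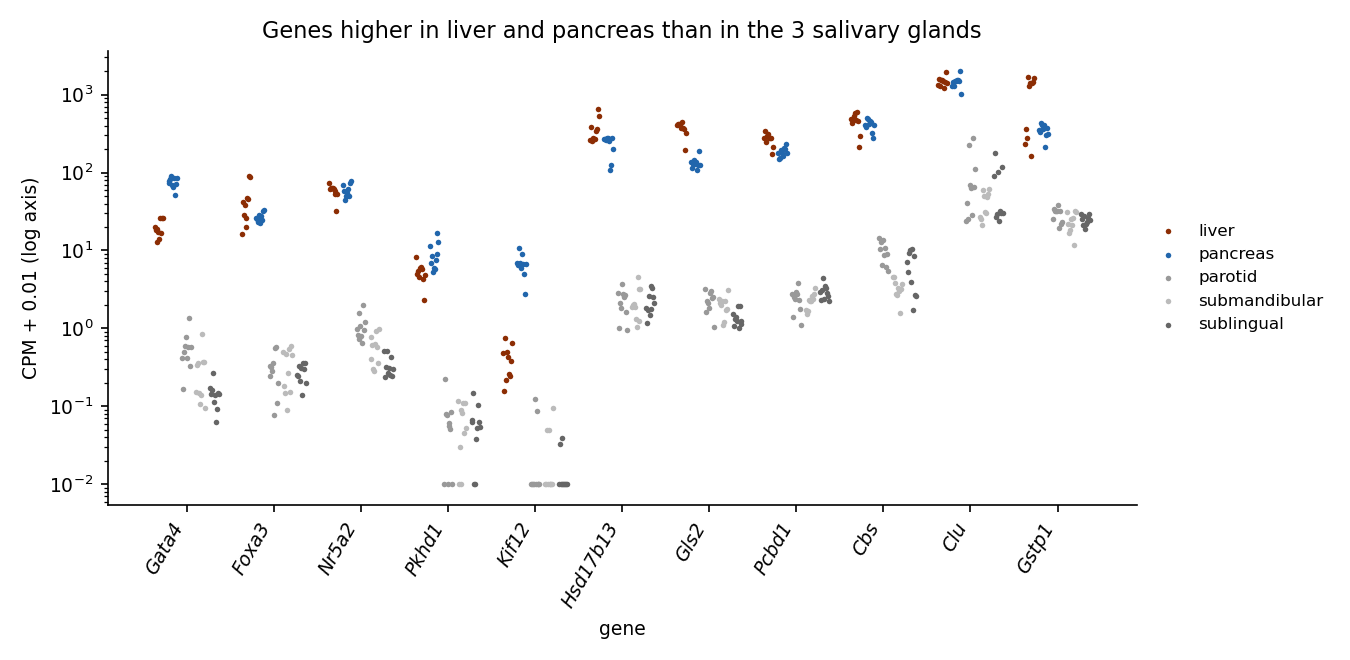
Level of 11 genes in each library of liver, pancreas and the parotid, submandibular and sublingual glands of 10 mice (CPM + 0.01 on the 50-library TMM scale, log axis). Every liver and pancreas point of each gene lies above every gland point, and liver Gstp1 falls in separate male and female groups.

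The organ difference differed by strain for 832 genes (5.56%) at an adjusted p under 0.05, of which 445 had a larger liver minus pancreas difference in CD1 and 387 in C57. The count fell to 391, 461 and 484 without C57 male 2, 3 and 1, to 464 without CD1 female 1, the only CD1 female, and to 547 without CD1 male 2. Pctp, a phosphatidylcholine transfer protein gene, had 1.63 to 2.73 CPM in CD1 livers and 87.9 to 134 CPM in C57 livers, with 3.11 to 9.93 CPM in pancreas, so the organ difference was lower in CD1 by 4.68 ± 0.24 log2 units (adjusted p = 4.1e-07). Camk2b, a calcium-dependent kinase gene, had 37.6 to 66.0 CPM in C57 pancreas and 0.296 to 1.89 CPM in CD1 pancreas (8.03 ± 0.57). Its CD1 livers were widely spread, at 0.118 to 24.3 CPM, against 0.819 to 2.65 CPM in C57 livers. Cd59a, a complement inhibitor gene, had 16 to 28.5 CPM in CD1 pancreas and 3.66 to 6.85 CPM in C57 pancreas, with overlapping livers. Pcbp4 had 24.7 to 36.3 CPM in C57 pancreas and 8.85 to 12.2 CPM in CD1 pancreas (1.68 ± 0.13), and Asah2 11 to 15.6 against 2.59 to 5.46 CPM (2.42 ± 0.20).

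The organ difference differed by sex for 106 genes (0.709%), 55 with a larger liver minus pancreas difference in males and 51 in females. The count fell to 58 without CD1 female 1, and to 60 and 67 without C57 female 1 and 3. Mup7, a major urinary protein gene, had 328 to 4792 CPM in male livers, 2.78 to 26.9 CPM in female livers and 12.0 to 46.6 CPM in pancreas of either sex, an interaction of 8.10 ± 0.42 log2 units (adjusted p = 9.4e-07). Mup14 followed with 6.12 ± 0.46, and reads of this near-identical gene family may be split between its members. Slc22a26, an organic anion transporter gene, had 61.1 to 114 CPM in female livers against 0.0805 to 2.36 CPM in male livers. Gstp1, a glutathione transferase gene, had 826 to 1082 CPM in male livers and 104 to 230 CPM in female livers, against 144 to 287 CPM in pancreas. Male livers were thus above every pancreas library for Gstp1, and female livers overlapped with pancreas. The organ difference of Gstp1 itself was 1.04 ± 0.36 and fell under 2-fold without any 1 of the males. With all 12 animals the sex count was 22 and the strain count 82.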

How the data were processed

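The authors deposited 1 table of raw read counts per gene for all 60 libraries, with a gene length column (unit other) used only for CPM per kilobase; per the submitters' processing notes Trim Galore, HISAT2 and featureCounts were used with build GRCm39 (mm39). Versions, strand setting and ages are not given in the sources used here. Low counts were even more often than odd (ratio 1.85), so read pairs may have been counted as 2 reads, and printed raw counts may be up to 2 times the fragments. With counts halved, 5860 genes were called against 6710. Libraries were read through their names, and each mouse number gave both organs; same-mouse deviations correlated at 0.0826 to 0.266 over 9 pairs. Genes were filtered with filterByExpr and tested with edgeR 4.0.16 (R 4.3.3) quasi-likelihood fits, TMM scaling, the animal as a block and Benjamini-Hochberg adjustment, after tests on simulated data. Whether libraries beyond separate mice share a batch is not stated. Alternatives were DESeq2 1.42.0, other scalings, no filter, no block, all 12 animals, single strains, halved counts and each animal left out; library totals alone and removal of near-line genes were added after seeing the data. Named genes were the 10 largest differences each way at a mean of at least 100 CPM, listed genes, 10 shared genes by level, and the 5 smallest p for strain and for sex at 10 CPM or more; genes outside this rule are said to be chosen after their values were seen. Members and lists were chosen with earlier results of these data known. Results of some genes are not reported here.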

Additional observations from a re-analysis of the deposited data

Results flagged for a closer look

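Single libraries stood apart from the other 9 of their organ by a gap test (Dixon's, 95% level), with 22 flags over 174 groups tested. Chance flags about 1 in 20 groups only where all values come from 1 normal distribution. These CPM were untransformed and pooled over strains and sexes, so the 22 flags cannot be set against that rate. CD1 male 2 gave 10 of them: liver Clu (highest, 1227 CPM), Ero1b (highest, 91.2), Fgf21 (highest, 3.39), Gls2 (lowest, 121.6), Nr5a2 (lowest, 20.2), Pkm (highest, 31.6) and Sel1l (highest, 149 CPM), and pancreas Gls2 (highest, 125.8), Gnmt (highest, 225) and Krt18 (highest, 212 CPM). CD1 female 1 was highest for Hamp in liver (768 CPM) and pancreas (17.7), liver Igf1 (600.4) and pancreas Onecut2 (3.07), Pklr (15.1) and Shmt1 (10.96 CPM). CD1 male 3 was highest for liver Foxa1 (40.9 CPM), Hhex (120.4) and Xbp1 (223.8) and pancreas Hnf4a (53.4 CPM). C57 female 3 was highest for liver Pck1 (2225 CPM), and C57 female 1 for liver Pdx1 (0.083 CPM).

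By a test of the interaction, the organ difference (log2, CD1 minus C57) differed between strains for Pctp (-4.68), Cd59a (-2.30), Camk2b (8.03), Pcbp4 (1.68), Asah2 (2.42), Mup7 (-2.93), Mup14 (-2.70), Vtn (-1.73), Pklr (-1.24), Krt8 (-0.84) and Calr (-0.78). It also differed for Gata4 (0.62), Mthfd2 (0.75), Gatm (1.07), Fgf21 (2.59), Hsd17b13 (1.42), Hgfac (0.97), Xbp1 (0.64), Igf1 (0.71) and Eif2ak3 (1.03). Between sexes (male minus female) it differed for Mup7 (8.10), Mup14 (6.12), Gstp1 (2.37), Slc22a26 (-7.12) and Hamp2 (-3.25).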

How the results depend on the processing

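Of 1994 values recomputed for 105 genes under up to 19 settings, 1965 kept their direction and side of the threshold, 15 lost the call, 11 gained one and 3 reversed, all on library totals alone: Foxa2 (1.17), Nr5a2 (1.15) and Clu (1.19). That scaling gave 10364 called genes, 8849 higher in liver and 1515 in pancreas, 2464 within 2-fold and 63 shared. With all 12 animals 52 genes were shared, 82 differed by strain and 22 by sex, and Cd59a (-1.54), Asah2 (1.71), Mup14 (4.72) and Gstp1 by sex (1.97) lost their calls. Requiring the lower organ's mean to be 2-fold above the highest gland mean gave 733 shared genes. With no filter 1531 genes differed by strain and 433 by sex. Leaving out each animal gave 6652 to 6838 called genes, 3250 to 3362 higher in liver, 3357 to 3491 in pancreas, 5977 to 6060 within 2-fold, 276 to 315 shared, 391 to 767 by strain and 58 to 104 by sex. Without the replicate block, which pairs organs of a mouse, 6709 genes were called, 271 shared, 742 differed by strain and 83 by sex. DESeq2's test called 6759. In the CD1 pairs alone Foxa3 (1.02), Gamt (-1.16), Hsd17b13 (1.34) and Pkhd1 (-1.54) gained a call and Calr (0.83) lost it. In the C57 pairs alone Hgfac (0.81) and Gstp1 (0.72) lost theirs, and halved counts gave 5860 called genes, with Gstp1 at 0.99 and no longer called. The causes were not tested. Few counts limit Ptf1a, Pdx1, Gcg, Prss1 and Fgf21 in liver, where a library held as little as 0 to 2 reads.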
